A study of Octopus bimaculoides with 95 samples.

Results

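The 80 genes described here are low in dissected parts of the vertical lobe of the octopus brain relative to 6 other central brain lobes in 1 table of libraries. They were chosen by measured values: for each gene, the mean of the 5 vertical lobe parts on the log2(TPM + 1) scale was subtracted from the lowest mean among the 6 lobes, and the 80 highest scores were taken, leaving out genes at 5000 TPM or more in any of these 11 tissues. TPM is a level scaled by transcript length and by the total of its library, here 1000000. The 80 genes come from 17493 scored genes, out of 17527 with a numeric gene ID. The series holds 95 libraries of RNA sequencing from the California two-spot octopus, Octopus bimaculoides, 85 in a plate table and 10 in a second table. RNA was taken from whole tissue, and single neurons were taken to cDNA without extraction. The design asks how expression differs between parts of the nervous system and between nervous and other tissue.

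In the plate table the vertical lobe was divided into medial, left lateral, right lateral, left mediolateral and right mediolateral parts, with 3 libraries each. They were set against 6 lobes, also with 3 libraries each: the superior and inferior frontal lobes, the dorsal basal lobe, the remaining basal and subfrontal lobes as 1 tissue, the anterior superior buccal lobe and the subvertical lobe. Another 10 nervous tissues were not used to choose the genes. Of these, the deep medulla and the plexiform periphery of the optic lobe, the stellate ganglion and the arm cord proximal to the brachial crown have 3 libraries each, and the arm cord near the tip, the anterior, middle and posterior subesophageal lobes, the inferior buccal ganglion and the olfactory lobe have 1. The 25 non-neural tissues have 34 libraries. This division was made here and is not given by the labels, and it counts the retina and the optic gland as non-neural. The second table holds 2 libraries of whole vertical lobe, 1 each of medial superior frontal lobe, stellate ganglion and brachial ganglion, and 5 single neurons. The labels used here give no strain, age or treatment of the animals. They do not say either whether repeat libraries were made from different animals, so each p-value below reflects only the spread between libraries or tissues, which may be technical in part.

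The vertical lobe sits at the top of the octopus brain and is known for its part in learning and memory. It receives its input from the superior frontal lobe and holds very many small amacrine interneurons, which converge on far fewer large efferent neurons that leave it toward the subvertical lobe. The optic lobes process vision, the basal and subesophageal lobes take part in motor control, the buccal and inferior frontal lobes serve feeding and touch, and the stellate ganglia and arm cords drive mantle and arms. The files name the genes by number, and the gene table used here adds no product name, so no function is given to any of the 80. In bulk tissue, fewer cells of a type and less RNA per cell cannot be told apart.

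Libraries differed widely in depth. Reads recovered from the steps of the TPM values numbered 44064 to 6930065 in the 15 vertical lobe libraries (median 865825), against 112447 to 6375955 in the 18 libraries of the 6 lobes. The library labelled right mediolateral vertical lobe 1 stood apart, with 94.1% of its TPM in synthetic spike-in RNA and 55 of the 80 genes at 0. In left lateral 1, with 44064 reads, 45 of the 80 were at 0, and such a 0 does not show absence. The same holds for 2 tissues with a single library. The middle subesophageal lobe had 93.3% spike-in RNA, 121951 recovered reads and 20 of the 80 genes at 0. Buccal muscle had 89.7% spike-in RNA, 162293 recovered reads and 50 of the 80 genes at 0. The library labelled stellate ganglion 1 stood apart from its group as well. It gave the 80 genes 38.3 reads per 10000, against 173 and 209 in stellate ganglion 2 and 3, and a result that rests on it is also given without it. Label styles were not spread evenly across tissues, so style and lobe are partly confounded. Of the 15 vertical lobe libraries 9 carry labels starting with ObRNA and 5 labels starting with ObA, against 7 and 1 of the 18 libraries of the 6 lobes, and the labels do not explain these prefixes. Neither prefix occurs in the dorsal basal lobe, the remaining basal and subfrontal lobes or the superior buccal lobe.

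The 80 genes averaged 0.411 to 171 TPM in the vertical lobe, with a median over genes of 6.21 TPM, and 4.23 to 544 TPM in the 6 lobes, with a median of 34.4 TPM. On the log2(TPM + 1) scale the mean of the 6 lobes lay above the vertical lobe mean by a median of 2.49 (1.38 to 4.12 by gene). Scores ran from 2.44 at the first rank to 1.13 at the last, with a median of 1.5. Since these values chose the genes, they are a description and carry no test. At the edge of the rule the differences were small: LOC106872059 and LOC106881289 scored 1.134 and 1.132 just inside it, while LOC106877977 and LOC106872215 scored 1.128 and 1.121 just outside. In all, 878 genes scored above 0.

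Library by library, the 80 genes took 11.3 to 44.0 of every 10000 recovered reads in the 15 vertical lobe libraries (median 24.6), against 69.2 to 191 in the 18 libraries of the 6 lobes (median 143). The groups did not overlap in this share, which follows largely from the choice of genes on these same libraries. The median gene of the 80 stood at percentile 61.4 of all genes in the median vertical lobe library, against percentile 85.1 in the median library of the 6 lobes. Among libraries over 500000 reads the share was 11.3 to 37.9 in 8 vertical lobe libraries, against 69.2 to 191 in 11 others. Within the ObRNA labels it was 19.96 to 44.0 in 9 vertical lobe libraries, against 69.2 to 169 in 7 libraries of other lobes. These 7 came from the inferior frontal, superior frontal and subvertical lobes alone. Within the ObRNA labels all 80 genes had the lower mean in the vertical lobe, with these lobes above it by a median of 1.95 on the log2 scale. Of all 14791 genes with at least 1 TPM in 3 plate libraries, 57.1% had the lower mean in the vertical lobe. These libraries are among those that chose the genes. The count of 80 and the separation of the shares, also by depth and label style, follow largely from the choice, and nothing is read from them. The ObA labels have 1 library outside the vertical lobe, at 93.0, against 11.3 to 37.9 in 5 vertical lobe libraries.

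**Figure D1:**
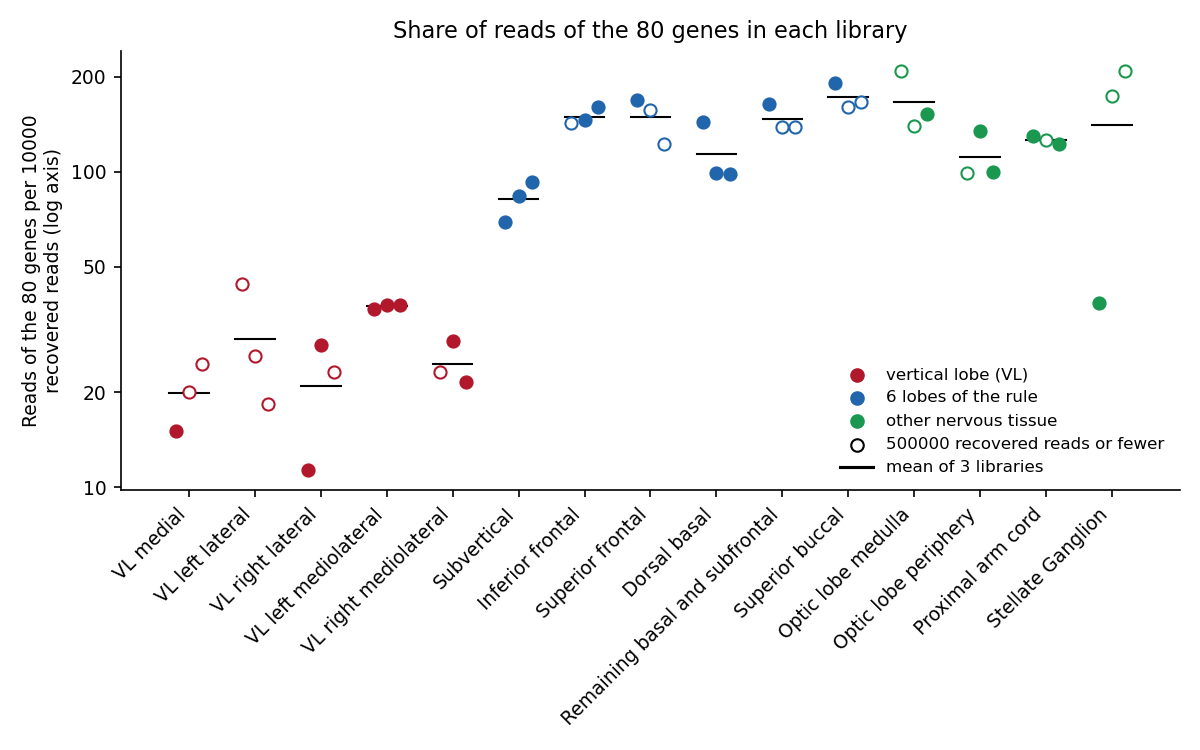
Reads of the 80 genes per 10000 recovered reads (log axis) in each library of the 5 vertical lobe parts, the 6 lobes used to choose the genes and 4 other nervous tissues. Points are libraries, open where a library has 500000 recovered reads or fewer, and bars are means of 3 libraries. The 15 vertical lobe libraries lie between 11.3 and 44.0, the subvertical lobe is the lowest of the 6 lobes, and stellate ganglion 1 lies at 38.3.

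The highest score belonged to LOC106882308, which had 0, 5.92 and 58.6 TPM in its lowest, median and highest vertical lobe library, against 13.4, 37.8 and 109 TPM in the 6 lobes. Its groups overlapped through medial 2 alone, which held the 58.6 TPM, while the next vertical lobe value was 12.0 TPM. LOC106868015 had 0, 7.86 and 14.4 TPM in the vertical lobe, against 15.3, 39.7 and 451 TPM in the 6 lobes, and did not overlap. Its superior frontal libraries had 136.5, 451 and 361 TPM, and superior buccal 1 had 219 TPM, while the other libraries of the 6 lobes had at most 64.0 TPM. LOC106868368 was expressed throughout the vertical lobe, at 10.8, 29.8 and 83.5 TPM, against 115, 241 and 413 TPM in the 6 lobes. LOC106868015 and LOC106868368 were the only 2 of the 80 genes whose 15 vertical lobe libraries all lay below all 18 others, as did 0.0203% of the 14791 genes. Here the choice of genes used the same libraries, so nothing is read from that count.

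The other genes of the 12 highest scores overlapped between the groups. LOC106875132 had 0, 2.03 and 10.5 TPM in the vertical lobe, against 0.863, 21.2 and 105 TPM in the 6 lobes. LOC106872046 had 4.64, 35.4 and 97.9 TPM, against 78.5, 232 and 766 TPM. LOC106881249 was the most abundant of the 12, with 0, 111 and 308 TPM in the vertical lobe, against 66.7, 436.5 and 1145 TPM in the 6 lobes. LOC106879116, LOC106867823 and LOC106873410 had vertical lobe medians of 7.31, 5.39 and 2.96 TPM, against 50.4, 59.8 and 26.1 TPM. LOC106867957 and LOC106869299 were highest in the superior frontal lobe and reached 29.6 and 31.5 TPM in their highest vertical lobe library, against 383 and 335 TPM in the highest library of the 6 lobes. LOC106867250 was low in both groups, with medians of 2.07 TPM in the vertical lobe and 12.7 TPM in the 6 lobes. Few reads stood behind the lowest values. LOC106869299 had 115 recovered reads over the 15 vertical lobe libraries, against 2454 over the 18 others, and LOC106877719 had 19, against 800.

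The 6 lobes did not contribute alike. The subvertical lobe, which lies beneath the vertical lobe, was the lowest of the 6 for 33 of the 80 genes, and the dorsal basal lobe for 13, the remaining basal lobes for 11, the superior frontal for 9, and the inferior frontal and superior buccal lobes for 7 each. It was the highest of the 6 for 2 genes, while the inferior frontal lobe was for 23, the superior frontal for 21 and the superior buccal for 18. The same counts over all genes were not made. LOC106868044 shows how uneven a gene could be, at 408 ± 112 TPM in the subvertical lobe and 484 ± 393 TPM in the superior buccal lobe but 23.4 ± 16.3 TPM in the inferior frontal lobe (SD, n = 3 each).

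Across the rest of the animal, the 80 genes were not low in the vertical lobe only. For 41 of them the vertical lobe mean was below the mean of each of the 10 nervous tissues that did not enter the choice, as it was for 3.23% of the 14791 genes. For 73 it was below at least 8 of the 10, a count not made over all genes. All 80, however, had at least 1 non-neural tissue below the vertical lobe, with a median of 16 of the 25 non-neural tissues, and for none was the vertical lobe the lowest tissue of all. A non-neural tissue below the vertical lobe is no trait of the 80. Of all 14791 genes, 8.41% lay above the vertical lobe in the anterior salivary gland and 10.1% in buccal muscle. The 80 are therefore called here by the rule, as genes lower in the vertical lobe parts than in the 6 lobes of the plate table. All these differences share the vertical lobe libraries that chose the genes, so they are given without a test.

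Among nervous tissues outside the choice, the optic lobe medulla stood highest, with a median difference from the vertical lobe of 2.84 on the log2 scale and 77 of the 80 genes above it. The arm cord near the tip and the anterior subesophageal lobe followed at 2.59 and 2.41, and the optic lobe periphery, inferior buccal ganglion and proximal arm cord at 2.28, 2.12 and 2.07. The posterior and middle subesophageal lobes, the olfactory lobe and the stellate ganglion were at 1.76, 1.71, 1.52 and 1.36. For comparison, the median of all 14791 genes was between -0.48 and 0.03 in these 10 tissues. Of the non-neural tissues, the hectocotylus (the modified arm of males), the arm tip and the optic gland (an endocrine gland on the optic stalk) were the highest, at 1.196, 1.145 and 0.67, each from 1 library. The posterior salivary gland, buccal muscle, mantle and anterior salivary gland were the lowest, at -1.09, -1.27, -1.27 and -1.41. Whether nervous tissue was part of the arm or optic gland samples was not tested.

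**Figure D2:**
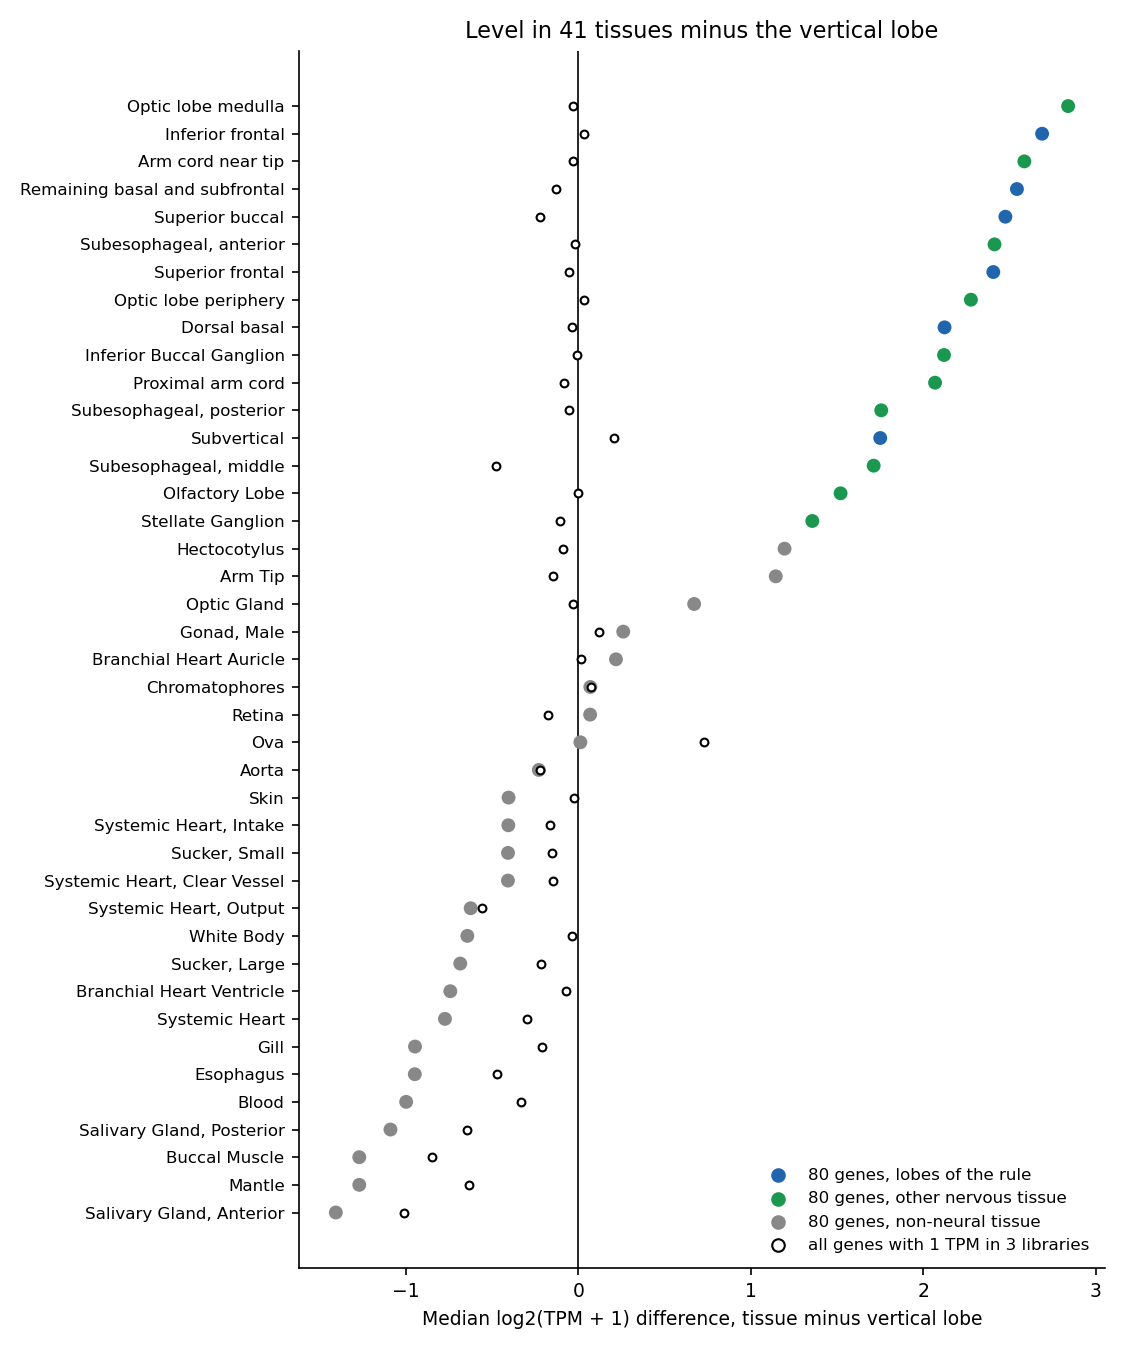
Median over the 80 genes of the log2(TPM + 1) difference between each of 41 tissues and the vertical lobe, with the median over all genes with 1 TPM in 3 libraries as open circles. Blue lobes were used to choose the genes, and their difference follows from that choice. All 10 other nervous tissues lie between 1.36 and 2.84, above every non-neural tissue, and the lowest is the anterior salivary gland at -1.41.

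The level in nervous tissue outside the choice was then compared with that in non-neural tissue, which uses none of the libraries that chose the genes. Of the 80 genes, all of which passed the filter of 1 TPM in 2 tissues, 59 had the higher level in the 10 nervous tissues by limma, at an adjusted p under 0.05 and a log2 difference of at least 1. The same call was made for 9.89% of all 14422 genes. None of the 80 was called lower, against 0.79% of all genes. The median difference of the 80 was 2.26, against 0.15 over all genes, and 77 of the 80 were positive. Without the retina, counted as non-neural here, these medians were 2.22 and 0.155. Without the shallow middle subesophageal library they were 2.16 and 0.238. The libraries chromatophores 1, retina 3, optic gland and stellate ganglion 1 were marked as nearer to the other class of tissue. Without them the medians were 2.39 and 0.134, and 11.4% of all genes were called higher and 1.77% lower. The 80 were not picked on these tissues, but all averaged at least 4.23 TPM in the 6 lobes, so the share among all genes is no matched background.

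The largest difference was that of LOC106868044, with 90.1, 307 and 1110 TPM in its lowest, median and highest nervous tissue, against 0, 1.81 and 533 TPM in non-neural tissues (log2 difference 5.92 ± 0.69 (SE), adjusted p 5.84e-08 in limma). The inferior buccal ganglion held its highest level and the optic gland its highest non-neural level. LOC106882364 had 81.0, 232 and 1715 TPM in nervous tissues, with the anterior subesophageal lobe on top, against 0.310, 3.38 and 928 TPM in non-neural tissues (5.21 ± 0.72, adjusted p 1.2e-06 in limma). The 928 TPM came from the single library of ova.

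LOC106876926 was more evenly spread, at 34.3, 92.2 and 242 TPM in nervous tissues, against 0, 0.486 and 63.1 TPM in non-neural tissues, where the retina was highest (5.12 ± 0.58, adjusted p 2.89e-08 in limma). LOC106869003 peaked in the middle subesophageal lobe and had 10.4, 148.5 and 561 TPM in nervous tissues, against 0, 1.075 and 47.2 TPM (5.11 ± 0.58, adjusted p 2.89e-08 in limma). LOC106874383 had 17.7, 155 and 618 TPM, highest in the optic lobe medulla and lowest in the stellate ganglion, against 0, 2.25 and 102 TPM in non-neural tissues, highest in the arm tip (5.03 ± 0.71, adjusted p 1.79e-06 in limma). In each of these 5 genes the ranges of the tissues overlapped, while the nervous median was at least as high as the highest non-neural tissue in LOC106876926, LOC106869003 and LOC106874383. Several of the highest scores were called too, among them LOC106879116 (4.46 ± 0.57, adjusted p 2.71e-07 in limma) and LOC106881249 (4.29 ± 0.76, adjusted p 6.35e-05 in limma).

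The 21 genes without a call included some that were abundant outside the nervous system. LOC106873050 had 0, 18.99 and 130 TPM in nervous tissues, against 0.646, 27.6 and 913.5 TPM in non-neural tissues, with the mantle on top (-1.82 ± 0.84, adjusted p 0.170 in limma). LOC106881964, named after its values were seen, had 0, 12.4 and 32.2 TPM, against 0, 26.5 and 151 TPM, with the large sucker on top (-1.42 ± 0.65, adjusted p 0.168 in limma). LOC106868732 had 318, 536 and 1096 TPM in nervous tissues, against 5.47, 181 and 1626 TPM in non-neural tissues, where the white body, a blood-forming organ, was highest (1.83 ± 0.65, adjusted p 0.0595 in limma). LOC106880256, by contrast, was called higher (4.23 ± 0.73, adjusted p 4.19e-05 in limma), although its highest tissue was the optic gland, at 1291 TPM in 1 library. Tissues, not libraries, were the units here, and related parts of an organ counted separately. At an unadjusted p under 0.05, LOC106873050 and LOC106881964 were the 2 lower genes, against 4.001% of all genes. With quantile scaling 53 of the 80 were called, while over all genes the calls went from 1426 higher and 114 lower to 906 and 354 and the median difference of all genes moved to -0.08.

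**Figure D3:**
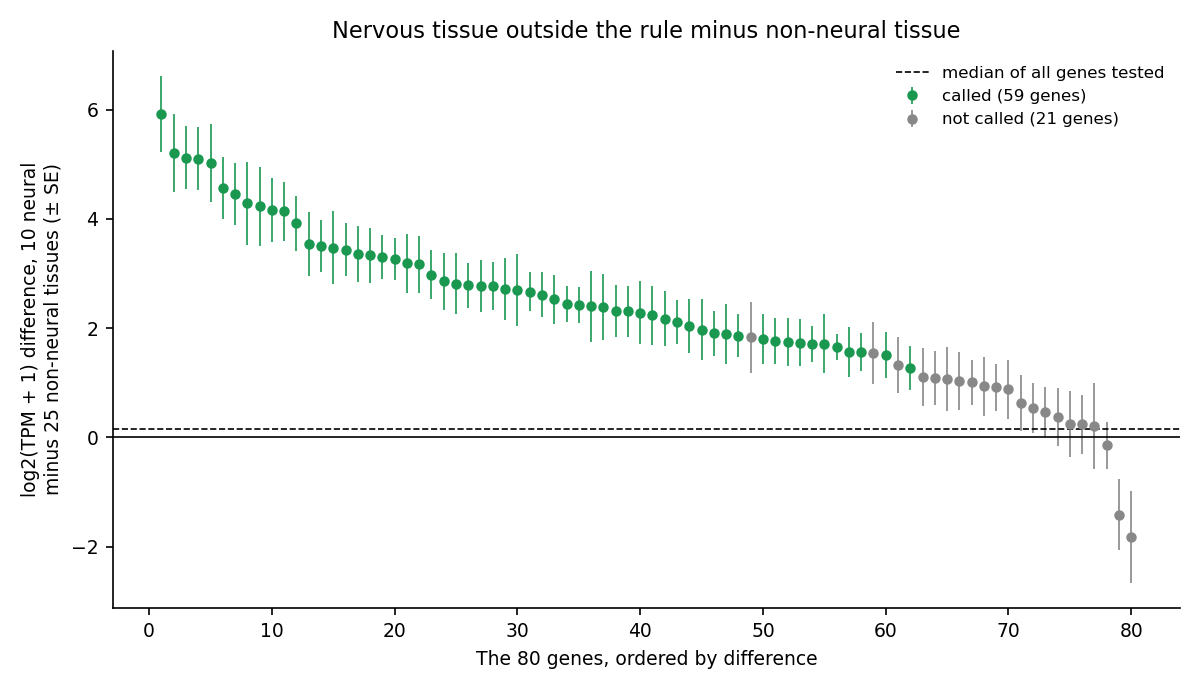
Difference in log2(TPM + 1) between 10 nervous tissues outside the choice and 25 non-neural tissues for each of the 80 genes, ordered by size, with its standard error. The 59 called genes are green and the 21 others grey, and the dashed line is the median of all genes tested, 0.15. The differences run from 5.92 for LOC106868044 to -1.82 for LOC106873050.

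By the tissue of the highest mean on the log2 scale, the 80 genes were spread over nervous and non-neural tissues. Of them, 26 peaked in 1 of the 6 lobes that chose them, led by the inferior frontal lobe with 10 and the superior frontal with 8. Another 14 peaked in a subesophageal lobe, 12 in the optic lobe, 4 in the arm cord near the tip and 2 in the inferior buccal ganglion or olfactory lobe. The remaining 22 peaked in a non-neural tissue, most often the optic gland (4) or the large sucker (3). Many of these tissues have 1 library. The shallow middle subesophageal library held 7 of the 14 subesophageal peaks. The same counts over all genes were not made, so nothing particular to the 80 is read from them.

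Within the nervous system outside the choice, the 6 optic lobe libraries were compared with the 6 of stellate ganglion and proximal arm cord. The optic lobe was higher for 6 of the 80 genes in limma, or 7.5% of them, against 0.665% of all 11122 genes tested, and lower for 0, against 0.342%. The median difference was 0.90 over the 80 and 0.28 over all genes, with 55 of the 80 positive. Without the library labelled stellate ganglion 1 these medians were 0.49 over the 80 and 0.44 over all genes. All 80 passed the filter of 1 TPM in 3 of the 12 libraries. They were picked for their levels in central lobes and averaged at least 4.23 TPM there. The shares among all genes are therefore no matched background in this comparison. With the filter at 5 TPM, 1.35% of all genes were called higher.

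LOC106874383 had 237, 562 and 742 TPM in its lowest, median and highest optic lobe library, against 1.51, 64.0 and 180 TPM in stellate ganglion and arm cord, without overlap (log2 difference 3.98 ± 0.66 (SE), adjusted p 0.00753 in limma). The 3 stellate ganglion libraries were its lowest, at 1.51, 6.51 and 45.1 TPM. LOC106870321 had 14.4, 82.6 and 243 TPM in the optic lobe, against 0, 1.60 and 13.9 TPM (4.89 ± 0.88, adjusted p 0.0149 in limma). The groups did not overlap, though optic lobe periphery 3 and arm cord 1 nearly met at 14.35 and 13.87 TPM. LOC106880256 had 93.2, 246 and 1039 TPM in the optic lobe, against 17.3, 40.1 and 56.9 TPM, also without overlap (2.99 ± 0.63, adjusted p 0.0288 in limma).

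LOC106872573 separated as well, at 11.5, 23.4 and 56.9 TPM in the optic lobe, against 0, 0.568 and 10.25 TPM (3.70 ± 0.77, adjusted p 0.0271 in limma). LOC106877719 had 11.7, 20.6 and 32.1 TPM in the optic lobe, against 0, 0.2185 and 20.1 TPM, and overlapped through arm cord 2 alone (3.43 ± 0.79, adjusted p 0.0485 in limma). LOC106871153 had 34.4, 157 and 174 TPM in the medulla and 1.82, 6.05 and 17.0 TPM in the periphery, against 3.38 to 13.7 TPM in the arm cord and 0 in all 3 stellate ganglion libraries (3.22 ± 0.74, adjusted p 0.0485 in limma). Its periphery and arm cord libraries overlapped. In all, 6 of the 80 genes had every optic lobe library above every library of the other group, against 1.83% of all genes, and 0 the reverse, against 0.504%. Of these, 4 were among the called genes, and the other two, named after their values were seen, were LOC106867808 and LOC106869484.

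The count of 6 genes called higher was not stable. It was 1 without periphery 2, 2 without medulla 1 or arm cord 3, and 3 without medulla 3, periphery 3, arm cord 1, arm cord 2 or stellate ganglion 3. It was 0 on the deposited scale and 10 with voom, limma's method for counts, on recovered reads. The share of all genes called higher moved as well, to 0.099% on the deposited scale, to 2.01% with voom and to between 0.238% and 0.818% with 1 library left out. LOC106874383 and LOC106870321 passed under 22 of 24 other settings each, LOC106872573 under 13, LOC106871153 under 8 and LOC106877719 under 6. Without the library labelled stellate ganglion 1, 7 genes were higher and 4 lower in the optic lobe: LOC106867198, LOC106873827, LOC106869003 and LOC106869142, named after their values were seen. Of all genes, 0.818% were then higher and 0.677% lower. With all libraries the lower calls numbered 2 at an unadjusted p under 0.05 and 0 with voom, against 4.487% and 1.16% of all genes. With quantile scaling the calls over all genes went from 74 higher and 38 lower to 47 and 48.

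**Figure D4:**
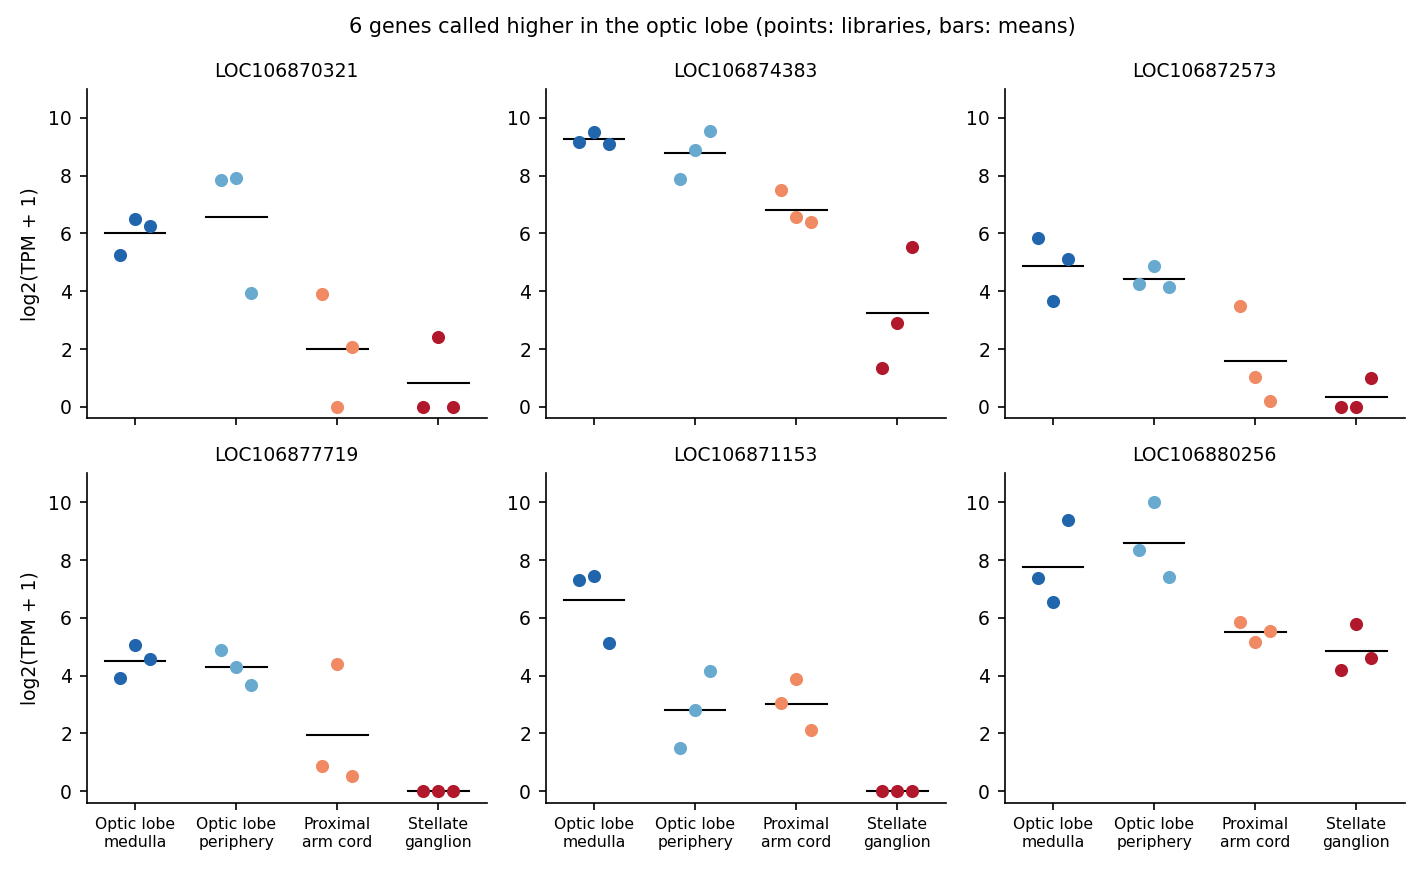
Level as log2(TPM + 1) in each of the 3 libraries (points) of optic lobe medulla, optic lobe periphery, proximal arm cord and stellate ganglion, with means as bars, for the 6 genes called higher in the optic lobe. LOC106877719 overlaps through 1 arm cord library and LOC106871153 through the periphery, while the other genes separate the groups.

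Between the 5 parts of the vertical lobe, which entered the choice only as their mean, no difference passed the threshold. An F-test in limma over the 15 libraries called 0 of the 80 genes and 0.0% of all 10964, with a smallest adjusted p of 0.991 among the 80, and voom called 0 as well. At an unadjusted p under 0.05 there were 7 of the 80, against 3.20% of all genes. The smallest adjusted p over all genes was 0.260 in limma. The genes were chosen for a low mean in these same 15 libraries, which puts many of their values at or near 0. With 3 libraries per part this test has little precision, and a gene that misses the threshold may still differ. The left mediolateral part had the highest mean for 45 of the 80 genes and the lowest for none. The same count over all genes was not made, so nothing particular to the 80 is read from it. The 3 left mediolateral libraries gave the 80 genes 36.6, 37.7 and 37.9 reads per 10000, at 880829, 2165320 and 5516013 recovered reads. The right mediolateral part gave 23.1, 29.0 and 21.5 and was the lowest for 35 genes. It includes the library with 55 genes at 0. The medial libraries gave 15.1, 19.96 and 24.6 reads per 10000, the left lateral 44.0, 26.0 and 18.3, and the right lateral 11.3, 28.2 and 23.2. Only left mediolateral had fewer than 5 of the 80 genes at 0 in every library, and the part of such zeros in the order of the parts was not tested.

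The second table gave a different picture. It holds 2 libraries of whole vertical lobe, kept apart from the plate libraries and scaled separately, which the choice did not use. Their median gene among the 80 stood at 16.5 and 11.8 TPM, against 15.2 TPM in the medial superior frontal lobe, 10.5 TPM in the stellate ganglion and 20.6 TPM in the brachial ganglion. These medians were at the 76.5th and 78.5th percentile of all genes in the whole vertical lobe, against the 74.4th, 77.5th and 79.4th in the 3 others. No gene of the 80 was at 0 in either whole vertical lobe library. These 2 libraries had at least 9640957 and 5137651 recovered reads, against a median of 865825 in the plate parts.

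In limma, 0 of the 78 genes that passed the filter were called higher in whole vertical lobe than in the 3 other nervous tissues, against 0.0872% of 10316 genes, and 0 were called lower, against 0.0%. LOC106877719 and LOC106867808 did not pass the filter. At an unadjusted p under 0.05, 3 genes were on the higher side and 4 on the lower, against 1.997% and 2.288% of all genes. Over the 78 genes the median difference was -0.22, against -0.07 over all genes, with 29 positive and 49 negative, and it was 0.13 without the brachial ganglion. Without the medial superior frontal lobe, LOC106869142, named for this reason, was called lower, as were 0.569% of all genes, while 0.419% of all genes were higher. With 2 libraries against 3 single tissues this test has little precision, and a gene that misses the threshold may still differ.

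Both whole vertical lobe libraries lay below all 3 others for 6 of the 78 genes, or 7.69%, against 11.1% of all genes, and above all 3 for another 6, against 6.33%. Set against the medial superior frontal lobe alone, both were lower for 22 genes, or 28.2%, against 56.2% of all genes, and both were higher for 36, or 46.2%, against 18.0%. The median difference between whole vertical lobe and medial superior frontal lobe was 0.13 on the log2 scale over the 80 genes, with 16 lower by at least 1, 21 higher by at least 1 and 43 in between. In the plate table the corresponding difference between vertical lobe parts and superior frontal lobe had a median of -2.41, and all 80 were lower by at least 1, as the choice requires. The tables differ in dissection, in labels, in read depth and in scaling, and the part of these in the contrast was not tested.

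Single genes show the contrast. LOC106868044 had 242 and 154 TPM in whole vertical lobe, against 20.2 TPM in medial superior frontal lobe, while in the plate table it had a median of 7.64 TPM over 15 vertical lobe libraries, against 29.6 ± 13.4 TPM in the superior frontal lobe (SD, n = 3). LOC106882364 was the highest of the 80 in whole vertical lobe, at 580.0 and 633 TPM, against 474 TPM in the medial superior frontal lobe. LOC106880256 had 175 and 201 TPM, against 104 TPM. LOC106874383 had 153.5 and 307.5 TPM, on both sides of the 208 TPM of the medial superior frontal lobe, and so showed no direction. Some genes kept the direction of the plate table. LOC106868015 had 12.4 and 9.61 TPM in whole vertical lobe, against 71.4 TPM in the medial superior frontal lobe, and LOC106867957 had 28.7 and 17.8 TPM, against 86.0 TPM. The lowest in whole vertical lobe were LOC106867808 at 0.605 and 0.214 TPM, LOC106878508 at 1.02 and 1.01 TPM, LOC106878749 at 0.979 and 1.08 TPM and LOC106873050 at 1.38 and 2.27 TPM. Their levels in the medial superior frontal lobe, 0.426, 1.02, 0.626 and 2.03 TPM, were as low.

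**Figure D5:**
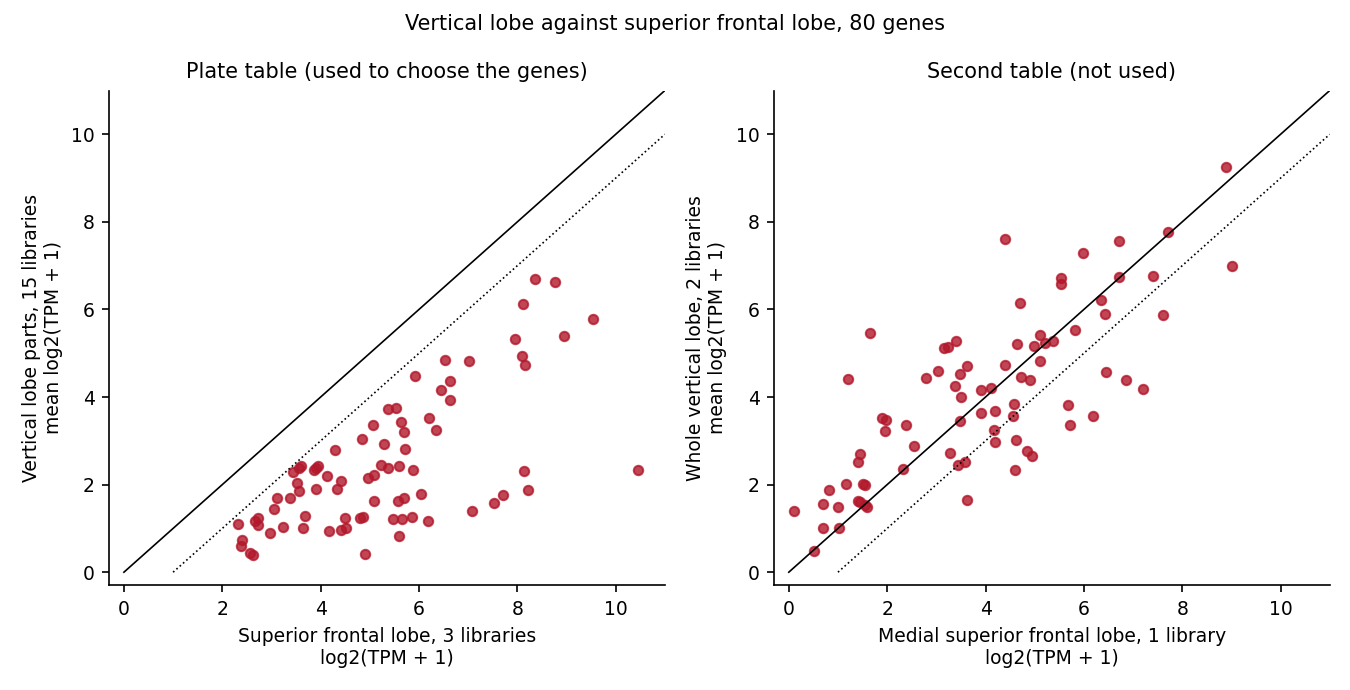
Mean log2(TPM + 1) of each of the 80 genes (points) in the vertical lobe against the superior frontal lobe, in the plate table that chose the genes (left) and in the second table (right). The solid line marks equal levels and the dotted line a vertical lobe lower by 1. All 80 points lie at or below the dotted line on the left by choice, and 16 on the right.

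The second table also has 1 large efferent and 1 amacrine neuron of the vertical lobe, single cells without replicates and so without a test. The median of the 80 genes was 1.80 TPM in the efferent and 0 in the amacrine neuron, with 32 and 43 genes at 0, against 38.1 and 25.9 TPM in 1 neuron each of optic lobe periphery and medulla, where 6 and 8 were at 0. A neuron of the stellate ganglion had 4.12 TPM and 31 genes at 0. Recovered reads, which are lower bounds in this table, numbered 1085081 for the efferent and 572058 for the amacrine neuron, against 139227 and 157361 for the optic lobe neurons. Over all genes, 9029 reached 1 TPM in the efferent and 6314 in the amacrine neuron, against 13524 and 13033 in the neurons of optic lobe periphery and medulla and 7539 in that of the stellate ganglion. The part of this difference in the zeros among the 80 was not tested. LOC106880256, LOC106880837 and LOC106867198 were the furthest toward the efferent neuron, at 209, 91.4 and 47.8 TPM, with 0 in the amacrine neuron. LOC106868015 and LOC106870108 were the furthest toward the amacrine neuron, at 42.6 and 41.2 TPM with 0 in the efferent, together with LOC106882919 at 147 and 2.40 TPM. Of these, LOC106868015 and LOC106870108 were also among the genes higher in medial superior frontal than in whole vertical lobe, LOC106870108 at 14.5 and 11.9 TPM in whole vertical lobe, against 50.5 TPM.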

How the data were processed

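RNA was sequenced from tissues and single neurons of Octopus bimaculoides. The values deposited by the authors are TPM per transcript, per the file headers, in 2 tables of 85 and 10 libraries. Per the submitters' processing notes STAR 2.3, edgeR 3.14.0, Trimmomatic 0.32 and featureCounts were used. Which genome build they ran on is not given in the sources used here.

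Spike-in entries were left out, columns rescaled to 1000000, and each gene represented by its transcript of highest mean over the plate libraries. Mean log2 levels per tissue gave the score that chose the 80 genes. The genes, lists, tests and the rule for named genes (the 12 highest scores, the edge of the rule, up to 5 called genes of the largest difference per test and direction, the 4 highest and lowest in whole vertical lobe, the 4 highest in a non-neural tissue, and the 3 furthest apart each way between the neurons) were chosen with earlier results of these data known. A gene outside it is said to be so.

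Tests used limma 3.58.1 in R 4.3.3 on log2(TPM + 1), with the prior variance following mean level, and Benjamini-Hochberg adjustment over all genes tested; differences on this scale understate the change of low genes. Calls needed an adjusted p under 0.05 and an absolute difference of at least 1. Genes entered at 1 TPM in 2 tissues, 3 libraries or, in the second table, 2 libraries. Tables were never mixed in a test. TPM carries no depth, but low values were whole multiples of the worth of 1 read. Within 0.05 of a whole number, reads were recovered for 16327 of 17545 table entries, all 80 genes among them; in the second table they are lower bounds. Both procedures were tested on simulated data. RefSeq's table for assembly ASM119413v2 held 75 of the 80 genes and served for biotype and gene order. Sequences of the genes are not used here.

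Alternatives covered the pseudocount, the filter on low TPM, the scaling, the transcript, left-out libraries and tissues, label styles and blocks by number or letter. Voom on recovered reads was added after seeing the data. Replicate numbers did not pair libraries: the median correlation of deviations between libraries with the same number was -0.02 in the optic lobe comparison and -0.06 within the vertical lobe. For libraries that share a label letter it was 0.10 and 0.12, against -0.06 for other letters in both.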

Additional observations from a re-analysis of the deposited data

Results flagged for a closer look

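Per-library values were looked at in 20 groups of 5 to 9 libraries for a single value far from the rest, which chance gives in about 1 of 20 groups, and 4 such values were found. That rate was not checked for TPM values near 0. The genes below were called as lower in these same libraries of stellate ganglion and arm cord, so nothing is read from the number of such values. LOC106870321 stood at 13.9 TPM in arm cord 1, while the other libraries of stellate ganglion and proximal arm cord had 0 to 4.39 TPM. LOC106872573 stood at 10.25 TPM in the same arm cord library, against 0 to 1.04 TPM in the others. LOC106877719 stood at 20.1 TPM in arm cord 2, against 0 to 0.837 TPM in the others. Among the 5 vertical lobe libraries with ObA labels, the median of the 80 genes was 6.59 TPM in left mediolateral 2 and 1.15 to 2.29 TPM in the others.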

How the results depend on the processing

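The count of genes higher in nervous than in non-neural tissue stayed within 1.5 times its value of 59 under all 71 alternatives (50 to 61), and 0 were lower in each. Over all genes, the share called higher ran from 5.25% on the deposited scale to 13% with the filter at 5 TPM. The share called lower ran from 0.424% to 2.45%. The count of 6 genes higher in the optic lobe moved more. It was 2 with no filter, 3 with quantile scaling, 0 on the deposited scale, 1 within labels that start with a 4-digit number, 10 with voom, and 3 with the replicate block (LOC106870321, LOC106872573 and LOC106874383). Of all genes, 0.196%, 0.423%, 0.099%, 0.0497%, 2.01% and 0.512% were called higher under these settings, in this order. Leaving out 1 library gave 1 to 7 genes higher and 0 to 4 lower, against 0.238% to 0.818% and 0.131% to 0.677% of all genes. The 4 came without stellate ganglion 1. Replicate numbers did not pair the libraries, so the block is given for completeness. A block by label letter gave 7 genes higher and 0 lower in the optic lobe, against 0.953% and 0.548% of all genes. Among the vertical lobe parts the count was 0 under all 26 alternatives, the block and voom included. In the second table, leaving out 1 library gave 0 to 1 genes lower in whole vertical lobe, the 1 without the medial superior frontal lobe, and a median difference of -0.40 to 0.13, turned only without the brachial ganglion (0.13). The choice of genes itself depends on scaling: 47 of the 80 were chosen again on the deposited scale, 61 with quantile scaling, and 63 to 78 with 1 library left out. Causes of these shifts were not tested. Shallow libraries limit low genes most.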

Other observations

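Some of the 80 genes are neighbours in the genome. Of the 73 that the RefSeq table of assembly ASM119413v2 places, LOC106868367 and LOC106868368 stand next to each other, as do LOC106878541 and LOC106868138, with LOC106876926 separated from LOC106878541 by 1 gene, and LOC106878196 and LOC106873239. LOC106868138 is a long non-coding RNA gene at a mean of 2.82 TPM in the vertical lobe and 37.6 TPM in the 6 lobes, with 12 recovered reads over the 15 vertical lobe libraries. Its protein-coding neighbour LOC106878541 averaged 27.0 TPM in the vertical lobe and 104.5 TPM in the 6 lobes. How often neighbours occur among other genes was not tested. Of the 80 genes 72 are annotated as protein coding.

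The sequences that the tables name in place of a numeric ID could not be chosen by the rule. The highest score among them would have been that of VLPep3, at 0.71, with 2.42 TPM in the vertical lobe and 704 TPM in the 6 lobes, followed by Sp12 at 0.48 (8.73 and 76.1 TPM). GNRH scored -0.24 (0.770 and 44.1 TPM), with the superior frontal lobe the lowest of the 6.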
